A study of Mus musculus with 8 samples.

Results

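ATP-binding cassette (ABC) transporters are membrane proteins that spend ATP to move lipids, bile acids, conjugates, drugs, metals and peptides out of the cytosol or between compartments. In hepatocytes, pumps of the canalicular membrane, which faces the bile, make bile by exporting bile salts, phospholipid, sterols and conjugated bilirubin. Pumps of the basolateral membrane, which faces the blood, return bile acids and conjugates to the circulation, and some are known to be raised in cholestasis. The family was chosen by name, as every gene whose platform symbol starts with Abc, a letter from a to g and a digit, which gave 48 of the 19560 genes on the array. They fall into 16 genes of subfamily A, 9 of B, 10 of C, 3 of D, 1 of E, 3 of F and 6 of G, and all 48 had values and entered the test. The family members with other names, Cftr, Tap1 and Tap2, are given apart.

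Liver of 8 male mice aged 6 weeks was profiled on Affymetrix mouse gene arrays, 1 per mouse. All mice had lost TAK1 in liver parenchymal cells (LPC). In 4 mice caspase 8, the protease of death receptor apoptosis, was also deleted in LPC (Tak1/Caspase8 LPC double knockout, here Tak1/Casp8). The other 4 were Tak1 LPC-KO/Rip3-/- mice (here Tak1/Rip3), which lack the necroptosis kinase RIP3 in the whole animal. Which Cre line was used is not stated in the labels. Cells other than LPC keep Map3k7 and Casp8, and mice with intact TAK1 were not analysed here, so a difference has no outside baseline. The stated question was which genes respond differently to apoptotic and to necrotic signals. Each value is a log2 intensity normalised by RMA, summarised as the median over the probe sets of a gene, and differences are the Tak1/Casp8 mean less the Tak1/Rip3 mean, tested with limma over all genes. A gene was called at an adjusted p under 0.05.

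Gene-level correlations between any 2 arrays lay between 0.975 and 0.993. Casp8 was lower in the Tak1/Casp8 livers (-1.31 ± 0.11 SE on the log2 scale) and Ripk3 was higher there (0.98 ± 0.17), as the labels state, while Map3k7, targeted in both groups, differed by -0.08. With the brightest probe set Ripk3 differed by -0.036, and Map3k7 by 0.088. Albumin (Alb) stood at 13.91 ± 0.01 in the Tak1/Casp8 livers and 13.95 ± 0.01 in the Tak1/Rip3 livers (SD, n = 4 each), and 0 of 8 hepatocyte markers was called in limma (1 at an unadjusted p under 0.05, and a median difference of -0.04). Of 6 stellate cell and fibroblast markers 2 were called lower in the Tak1/Casp8 livers, Lrat (-0.59) and Reln (-0.65), and all 6 differences were negative. Omitting replicate 2 of the Tak1/Casp8 livers or any 1 array of the Tak1/Rip3 livers ended the Reln call (adjusted p = 0.0561 to 0.0944), and with each gene's own variance in each group, unmoderated, the calls of Lrat (0.0900) and Reln (0.183) were lost. Of 6 bile duct markers measured, 2 differences were positive and 4 negative, and 3 had an unadjusted p under 0.05 in limma. Spp1 was called higher (0.97, a call lost with that variance model, adjusted p = 0.128). Epcam differed by -1.05 without passing (limma adjusted p = 0.0651). With the brightest probe set Epcam differed by -0.02 (limma adjusted p = 0.925), and with the brighter probe sets by -0.67 (0.161). Epcam passed in 2 of 18 other settings. Of the other marker lists, 0 of 8 Kupffer cell, 0 of 6 endothelial, 0 of 6 T and NK cell and 0 of 3 erythroid markers were called in limma (1, 2, 2 and 0 at an unadjusted p under 0.05). Of 5 neutrophil markers 1 was called higher, and of 3 B and plasma cell markers 1 was called higher and 2 lower. The part of these cells in the results was not tested. In whole liver, fewer cells of a type and less RNA per cell cannot be told apart.

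Most ABC transporter genes differed little between the groups. Of the 48 genes, 1 was called higher, Abcc3, and 2 were called lower, Abcd2 and Abca8a. That is 3 of 48 against 6.69% of all genes called (2.64% higher and 4.05% lower), so the family was called about as often as the array as a whole. At an unadjusted p under 0.05 there were 8 of the 48 members, beside 4130 of all 19560 genes. The counts at this threshold given for subfamilies and lists stand beside that same background. The median difference over the members was 0.03, beside 0.01 over all genes, and 28 of the 48 were positive, beside 52.6% of all genes, and 20 negative, beside 47.4%. The groups did not overlap for 5 members, 2 higher (Abcc3 and Abcg8, beside 6.33% of all genes) and 3 lower (Abcc2, Abcd2 and Abca8a, beside 8.3%). With each array shifted to the same median, 2 members were called higher and 1 lower, and all genes split into 655 higher and 661 lower, against 516 and 792 here.

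By subfamily, the calls lay in A (1 of 16, lower), C (1 of 10, higher) and D (1 of 3, lower). Subfamily B gave 0 calls among 9 in limma (2 at an unadjusted p under 0.05), with a median of 0.05 and a range from -0.20 to 0.31. Subfamily C ranged from -0.28 to 0.83 with a median of -0.07, and 6 of its 10 genes were negative. Subfamily G gave 0 calls among 6 (1 at an unadjusted p under 0.05), with a median of 0.10. Differences between subfamilies were not tested.

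The precision was similar for most members. The SE of a difference lay between 0.09 and 0.25, and the SD within a group between 0.03 and 0.48. The 95% interval of the difference stayed inside 1.5-fold either way for 38 members and inside 2-fold for 46. The 2 whose interval reached past 2-fold were Abcd2 and Abcc3. Abca12, Abca13, Abca14, Abca15, Abca16 and Abcb5 lay under the lower quartile of gene values on every array, where RMA values are compressed.

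**Figure D1:**
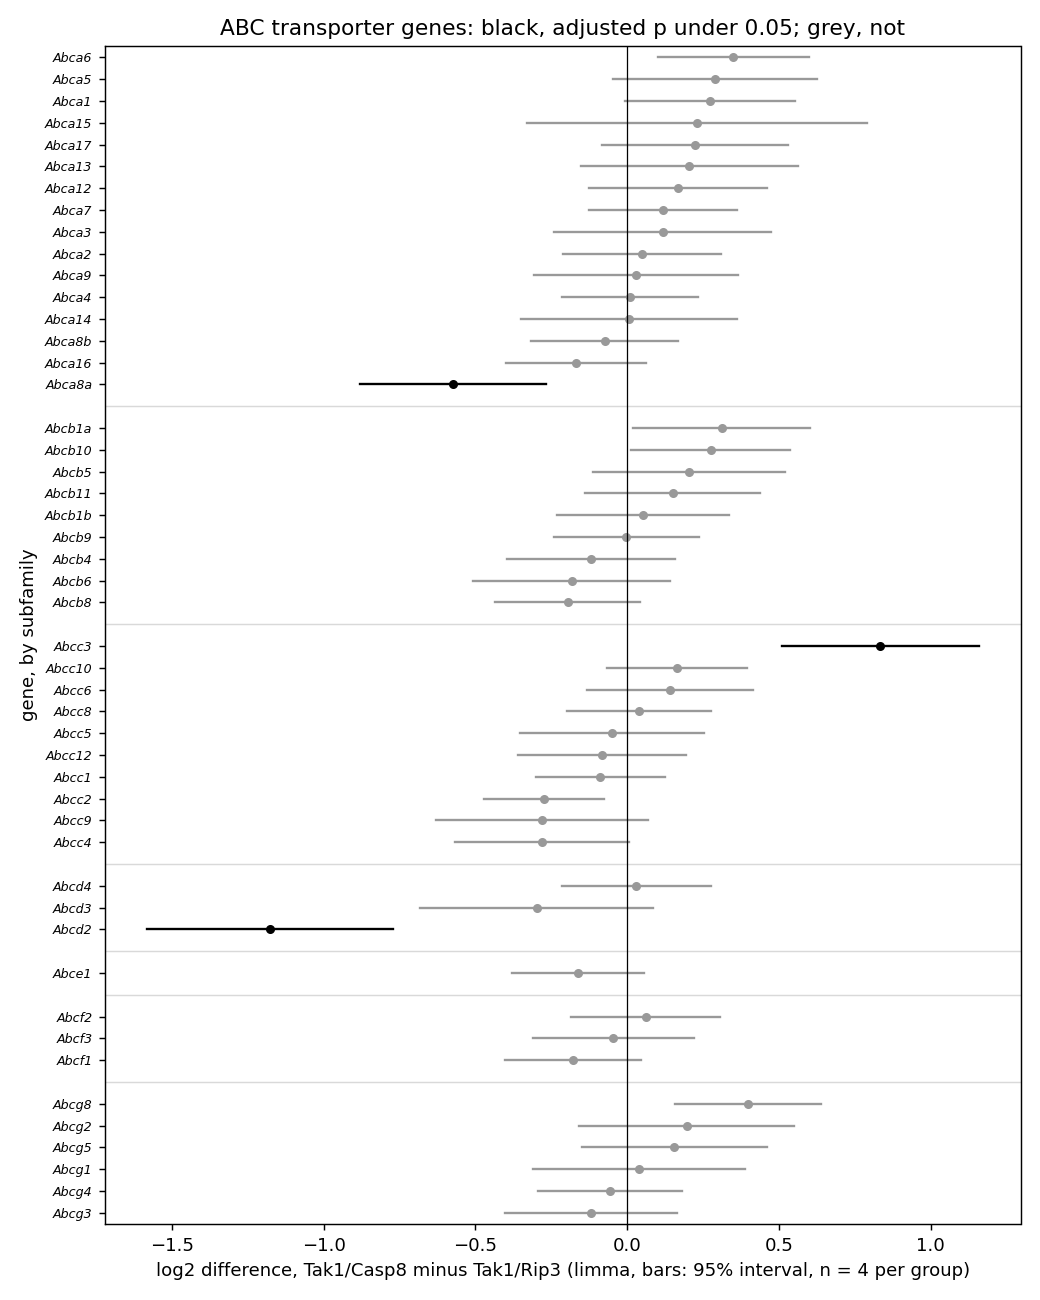
Log2 difference (Tak1/Casp8 minus Tak1/Rip3, x axis) of each of the 48 ABC transporter genes, grouped by subfamily from A at the top to G at the bottom, with the 95% interval from limma (n = 4 per group). Black marks the 3 genes with an adjusted p under 0.05, Abca8a at -0.57, Abcc3 at 0.83 and Abcd2 at -1.18, and grey the other 45.

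Promoter windows of 4 genes from the RefSeq promoter table (GRCm38.p6) are shown, to set members whose groups separated beside neighbours whose groups overlapped. Abca8a is the called member with a window, and Abca8b is its adjacent relative that was not called. Abcc2 and the start region that Abcg5 shares with Abcg8 belong to canalicular pumps. Each is the 250 bases before an annotated start, 5′ to 3′ on the gene's strand, and other starts of Abca8a and Abca8b may exist. Capitals mark exact matches, on either strand, to the TATA box, TATAAA, the CCAAT box, the GC box, GGGCGG, the nuclear receptor site, AGGTCA, the GATA site, AGATAA, or the core of the antioxidant response element, TGACNNNGC. The windows lie at chr11:110095938-110096187 (minus strand) for Abca8a, chr11:109995846-109996095 (minus) for Abca8b, chr19:43782058-43782307 (plus) for Abcc2 and chr17:84683012-84683261 (minus) for Abcg5.
Abca8a: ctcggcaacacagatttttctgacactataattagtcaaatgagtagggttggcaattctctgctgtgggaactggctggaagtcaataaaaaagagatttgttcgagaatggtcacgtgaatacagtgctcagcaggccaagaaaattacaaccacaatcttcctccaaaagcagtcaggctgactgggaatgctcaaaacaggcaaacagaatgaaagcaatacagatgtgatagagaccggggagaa
Abca8b: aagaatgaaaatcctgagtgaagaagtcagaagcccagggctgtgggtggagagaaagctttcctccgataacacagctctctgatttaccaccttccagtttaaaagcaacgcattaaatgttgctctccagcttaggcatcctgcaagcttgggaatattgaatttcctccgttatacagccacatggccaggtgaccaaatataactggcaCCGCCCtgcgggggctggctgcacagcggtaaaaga
Abcc2: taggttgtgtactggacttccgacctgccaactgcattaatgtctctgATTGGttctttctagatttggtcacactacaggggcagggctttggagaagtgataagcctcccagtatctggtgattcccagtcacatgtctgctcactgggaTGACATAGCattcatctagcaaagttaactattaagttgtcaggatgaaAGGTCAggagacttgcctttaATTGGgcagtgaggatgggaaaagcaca
Abcg5: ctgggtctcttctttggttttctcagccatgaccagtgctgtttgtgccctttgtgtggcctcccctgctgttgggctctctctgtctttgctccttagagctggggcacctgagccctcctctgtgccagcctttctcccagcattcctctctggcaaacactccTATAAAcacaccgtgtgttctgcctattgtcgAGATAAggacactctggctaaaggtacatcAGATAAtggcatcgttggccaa

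None of the 6 motifs was found in these letters of Abca8a, and Abca8b held a GC box. The Abcc2 window held 2 CCAAT boxes, 1 AGGTCA and 1 antioxidant response element core, and the Abcg5 window a TATA box and 2 GATA sites. Extended past the start as in the table, the Abcg5 window and 1 of the Abcg8 windows lie on opposite strands and share 209 bases. Across the table, 38 of the 48 members had 45 windows, of which 44.4% held a GC box, against 32.7% of all 32851 windows. The CCAAT box was in 28.9% of the members' windows, against 33.8% of all, the TATA box in 11.1% against 12.4%, AGGTCA in 15.6% against 14.0%, the GATA site in 11.1% against 9.99% and the antioxidant core in 8.89% against 10.2%. A match is a description of the letters and not a bound site.

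Among the pumps of the bile-facing membrane, 0 of 8 passed the test in limma (3 at an unadjusted p under 0.05), and the median difference was 0.15. Abcb11, the bile salt export pump, had 12.03, 12.45, 12.38 and 12.64 in the Tak1/Casp8 livers, against 12.28, 12.33, 12.09 and 12.20 in the Tak1/Rip3 livers. The groups overlapped, and the difference of 0.15 had a 95% interval of -0.14 to 0.44 (limma adjusted p = 0.564). Abcb4, the floppase that brings phosphatidylcholine into bile, had 11.50, 11.70, 11.84 and 11.91 in the Tak1/Casp8 livers, against 11.92, 11.60, 11.89 and 12.01 in the Tak1/Rip3 livers. These also overlapped (-0.12, interval -0.40 to 0.16, or 0.066 with the brightest probe set). Both of these pumps had intervals inside 1.5-fold either way.

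Abcc2 (MRP2), which exports bilirubin glucuronides and other conjugates into bile, separated the groups by a small step. It had 12.26, 12.25, 12.33 and 12.44 in the Tak1/Casp8 livers, against 12.65, 12.64, 12.58 and 12.50 in the Tak1/Rip3 livers. All 4 Tak1/Casp8 values were below all 4 Tak1/Rip3 values, which, in either direction, held for 14.6% of all genes. The difference was -0.27 ± 0.09 SE (interval -0.47 to -0.08, limma adjusted p = 0.1001), and all 34 of its probe sets had negative differences, from -0.69 to -0.05, with 0 of them called in limma (1.64% of all single probe sets were called, 0.532% higher and 1.11% lower). With the brighter probe sets of the gene the difference was -0.11, and with the mean over probe sets it was -0.27 and passed (adjusted p = 0.0421).

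Abcg5 and Abcg8 form the dimer that exports sterols into bile, and their genes lie next to each other, head to head. Abcg8 had 9.84, 9.85, 10.14 and 10.08 in the Tak1/Casp8 livers, against 9.73, 9.59, 9.42 and 9.58 in the Tak1/Rip3 livers. The groups did not overlap, and the difference of 0.40 ± 0.11 SE (interval 0.16 to 0.64) lay just outside the threshold (limma adjusted p = 0.0558), with 13 of 14 probe sets positive. With the brightest probe set it was 0.08 (adjusted p = 0.834), and it passed when genes below the 50th percentile were left out (0.0282). Abcg5 had 10.98, 10.93, 11.20 and 11.16 in the Tak1/Casp8 livers, against 11.19, 10.62, 10.77 and 11.08 in the Tak1/Rip3 livers. Its groups overlapped (0.16, interval -0.15 to 0.46), and the difference was -0.07 with the brightest probe set.

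The drug exporters of the canaliculus did not separate the groups. Abcb1a, a P-glycoprotein, had 9.09, 8.57, 9.06 and 9.02 in the Tak1/Casp8 livers, against 8.68, 8.44, 8.61 and 8.76 in the Tak1/Rip3 livers. Replicate 2 of the Tak1/Casp8 livers overlapped the Tak1/Rip3 values, and the difference was 0.31 ± 0.13 SE (limma adjusted p = 0.208). Its close copy Abcb1b averaged 6.64 ± 0.08 in the Tak1/Casp8 livers and 6.58 ± 0.26 in the Tak1/Rip3 livers (SD, n = 4 each), and changed sign between ways of summarising its probe sets. Its arrays had 6.68, 6.72, 6.58 and 6.56 in the Tak1/Casp8 livers, against 6.93, 6.33, 6.48 and 6.61 in the Tak1/Rip3 livers. Probes of near copies may share signal, so Abcb1a and Abcb1b are uncertain. Abcg2, which exports urate, porphyrins and drugs, averaged 9.83 ± 0.19 in the Tak1/Casp8 livers and 9.64 ± 0.31 in the Tak1/Rip3 livers, with overlapping groups (0.20, interval -0.16 to 0.55). Abcg2 had 9.63, 9.99, 10.01 and 9.71 in the Tak1/Casp8 livers, against 9.73, 9.17, 9.84 and 9.80 in the Tak1/Rip3 livers, and the lowest array was Tak1/Rip3 replicate 2.

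On the blood-facing side Abcc3 (MRP3), which exports glucuronides and bile acids to the blood, was the only 1 of 6 pumps that passed, and the median difference of the 6 was 0.05. It had 12.13, 12.05, 12.26 and 12.04 in the Tak1/Casp8 livers, against 11.66, 10.92, 11.21 and 11.35 in the Tak1/Rip3 livers. The Tak1/Casp8 values lay close together and all above the more scattered Tak1/Rip3 values. The Tak1/Casp8 livers had 1.78-fold more Abcc3 signal (0.83 ± 0.15 SE, interval 0.51 to 1.16, limma adjusted p = 0.00880). All 33 of its probe sets were positive, from 0.16 to 1.46, and 17 were called. Probe sets of a gene share the same RNA and are not replicates. The brightest probe set gave 0.52 (adjusted p = 0.0215), and the call was lost with each gene's own variance in each group (unmoderated, adjusted p = 0.136).

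Abcc4 (MRP4), which exports bile acids with glutathione and cyclic nucleotides, had 8.07, 7.86, 8.18 and 8.37 in the Tak1/Casp8 livers, against 8.65, 8.34, 8.29 and 8.33 in the Tak1/Rip3 livers. Replicate 4 of the Tak1/Casp8 livers overlapped the Tak1/Rip3 values, and the difference was -0.28 ± 0.13 SE (limma adjusted p = 0.248). Of its 31 probe sets 28 were negative and 2 were called lower, and with the mean over probe sets the difference was -0.45 and passed (adjusted p = 0.0136). Its direction was opposite to that of Abcc3; the difference between them was not tested.

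The remaining blood-facing pumps overlapped between the groups. Abca1, which loads cholesterol and phospholipid onto apolipoprotein A-I to form HDL, had 11.61, 11.29, 11.80 and 11.39 in the Tak1/Casp8 livers, against 11.26, 11.07, 11.36 and 11.31 in the Tak1/Rip3 livers (0.27 ± 0.13 SE, limma adjusted p = 0.250). Abcc6, whose activity in liver restrains calcification in other tissues, differed by 0.14, Abcc1 (MRP1), an exporter of glutathione conjugates, by -0.09 and Abcc5, an exporter of cyclic nucleotides, by -0.05. Abcc6 had 10.06, 10.22, 10.07 and 10.04 in the Tak1/Casp8 livers, against 10.10, 9.62, 9.95 and 10.15 in the Tak1/Rip3 livers. Abcc1 had 8.28, 7.99, 8.16 and 7.98 in the Tak1/Casp8 livers, against 8.16, 8.17, 8.20 and 8.23 in the Tak1/Rip3 livers. Abcc5 had 8.06, 7.61, 7.86 and 7.46 in the Tak1/Casp8 livers, against 7.95, 7.63, 7.78 and 7.82 in the Tak1/Rip3 livers. In each of the 3 genes the groups overlapped. Their intervals all stayed inside 1.5-fold, and the sign of Abcc5 and Abcc6 changed with the brightest probe set (0.06 and -0.0058).

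**Figure D2:**
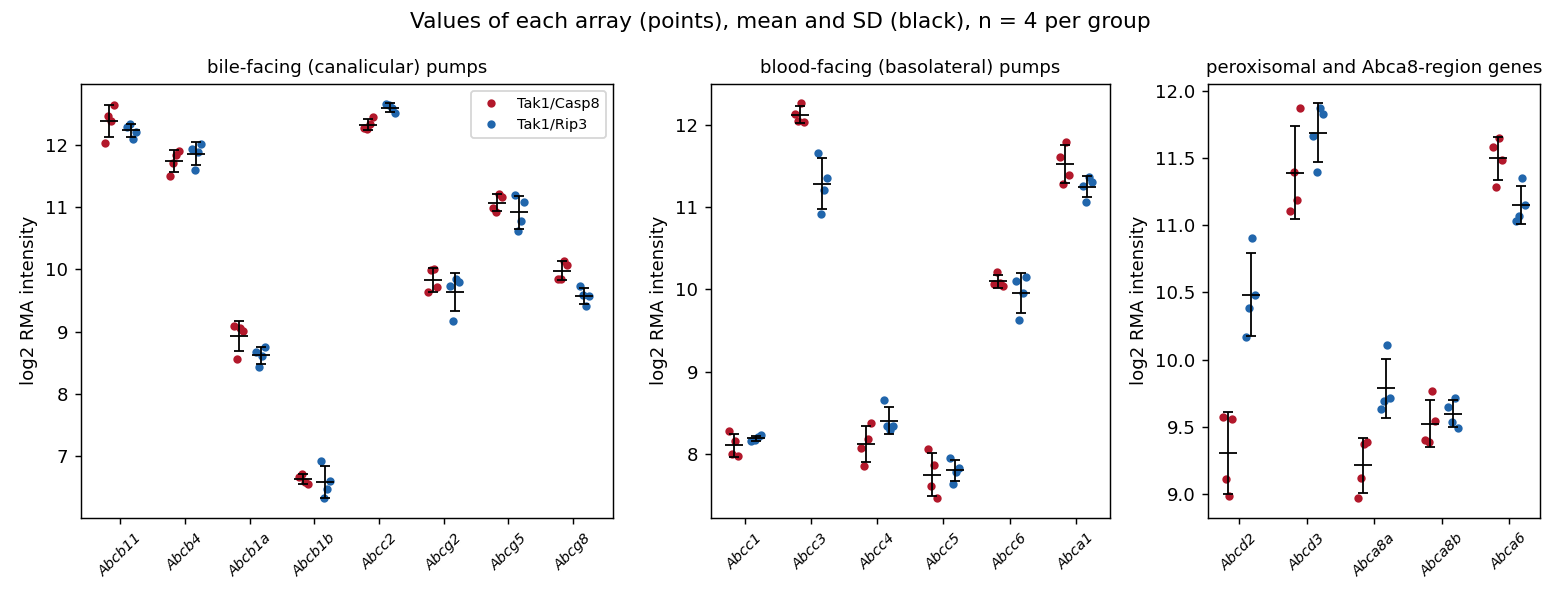
Log2 RMA intensity (y axis) of each array, with Tak1/Casp8 in red to the left of Tak1/Rip3 in blue for every gene, and the mean and SD in black (n = 4 per group), for 8 canalicular pumps, 6 basolateral pumps and 5 other members. The groups do not overlap for Abcc2, Abcg8, Abcc3, Abcd2 and Abca8a; heights of different genes are not comparable, since each gene has its own probes.

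Peroxisomal transporters carry fatty acyl-CoA into peroxisomes for oxidation. Abcd2, which takes up very long chain and polyunsaturated acyl-CoA, differed most of all 48 members. It had 9.58, 9.11, 8.98 and 9.56 in the Tak1/Casp8 livers, against 10.17, 10.38, 10.91 and 10.48 in the Tak1/Rip3 livers. Every Tak1/Casp8 value was below every Tak1/Rip3 value. In the Tak1/Casp8 livers Abcd2 was lower by 2.26-fold (-1.18 ± 0.18 SE, interval -1.58 to -0.77, limma adjusted p = 0.00519), and all 13 of its probe sets were negative, from -2.19 to -0.58, with 6 called. With each gene's own variance in each group the call was lost (adjusted p = 0.0803), and with the brightest probe set the difference was -0.87 (0.0322).

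Abcd3 (PMP70), the abundant peroxisomal transporter of long branched acyl-CoA and bile acid precursors, had 11.11, 11.40, 11.19 and 11.88 in the Tak1/Casp8 livers, against 11.66, 11.39, 11.87 and 11.83 in the Tak1/Rip3 livers. Tak1/Casp8 replicate 4 was the highest of all 8 values, and the difference of -0.30 ± 0.17 SE did not pass (limma adjusted p = 0.369). All 24 of its probe sets were negative, from -0.62 to -0.11. Tak1/Casp8 replicate 4 and Tak1/Rip3 replicate 2 correlated least with their own groups. Without both, an omission added after seeing the data, the difference was -0.56 and passed (limma adjusted p = 0.0232). They held the highest Abcd3 value of the Tak1/Casp8 livers and the lowest of the Tak1/Rip3 livers, so omitting them could only widen the difference. Without Tak1/Casp8 replicate 4 alone it was -0.46 and did not pass (0.0803). Abcd3 passed in 2 of 19 other settings. Over Abcd2 and Abcd3 together the mean level relative to all arrays lay between -0.63 and -0.0010 in the Tak1/Casp8 livers and between 0.17 and 0.67 in the Tak1/Rip3 livers.

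Subfamily A holds large lipid transporters. Positive differences were found for 13 of its 16 genes, beside 52.6% of all genes, with 1 called, lower, and a median of 0.12. Abca12, Abca13, Abca14 and Abca15, all positive, and Abca16, negative, lay under the lower quartile of gene values on every array. Abca14, Abca4 and Abca9 differed by only 0.0059, 0.01 and 0.03. Abca8a, a member of the Abca5 to Abca9 group whose substrates are less well defined, had 8.97, 9.12, 9.37 and 9.39 in the Tak1/Casp8 livers, against 9.63, 9.69, 10.11 and 9.71 in the Tak1/Rip3 livers. The groups did not overlap, and in the Tak1/Casp8 livers Abca8a was lower by 1.49-fold (-0.57 ± 0.14 SE, interval -0.88 to -0.27, limma adjusted p = 0.0342). All 35 of its probe sets were negative, with 1 called. Omitting replicate 1 or 2 of the Tak1/Casp8 livers or replicate 1, 3 or 4 of the Tak1/Rip3 livers ended the call (adjusted p = 0.0583 to 0.0938), as it ended with each gene's own variance in each group (0.136), with each array shifted to the same median (0.0549) and with the brightest probe set (0.163).

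Abca8a lies in a run of 5 ABC genes on chromosome 11, in the order Abca8b, Abca8a, Abca9, Abca6 and Abca5, with no other protein-coding gene between them in RefSeq. Differences along the run were -0.07, -0.57, 0.03, 0.35 and 0.29, so the neighbours did not share a direction (Abca9 changed sign with the mean over probe sets, -0.046). Abca8b had 9.40, 9.38, 9.77 and 9.54 in the Tak1/Casp8 livers, against 9.65, 9.53, 9.71 and 9.49 in the Tak1/Rip3 livers, with overlap. Abca6 had 11.58, 11.28, 11.65 and 11.49 in the Tak1/Casp8 livers, against 11.03, 11.07, 11.35 and 11.15 in the Tak1/Rip3 livers (0.35 ± 0.11 SE, limma adjusted p = 0.0984), and 38 of its 39 probe sets were positive. Only Tak1/Casp8 replicate 2 of Abca6 fell inside the range of the other group. Abca6 passed in 1 of 19 other settings, the mean over probe sets (0.34, limma adjusted p = 0.0344). With the brightest probe set it differed by 0.16 (0.424), and with the brighter probe sets by 0.21 (0.215). Abca8a and Abca8b are close relatives whose probes may share signal, and the differences between neighbours were not tested. Abca6, Abca9, Abca5 and Abca8b, like Abcd3, Abcc9, Abcg1 and the mitochondrial genes below, were singled out after their values were seen.

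**Figure D3:**
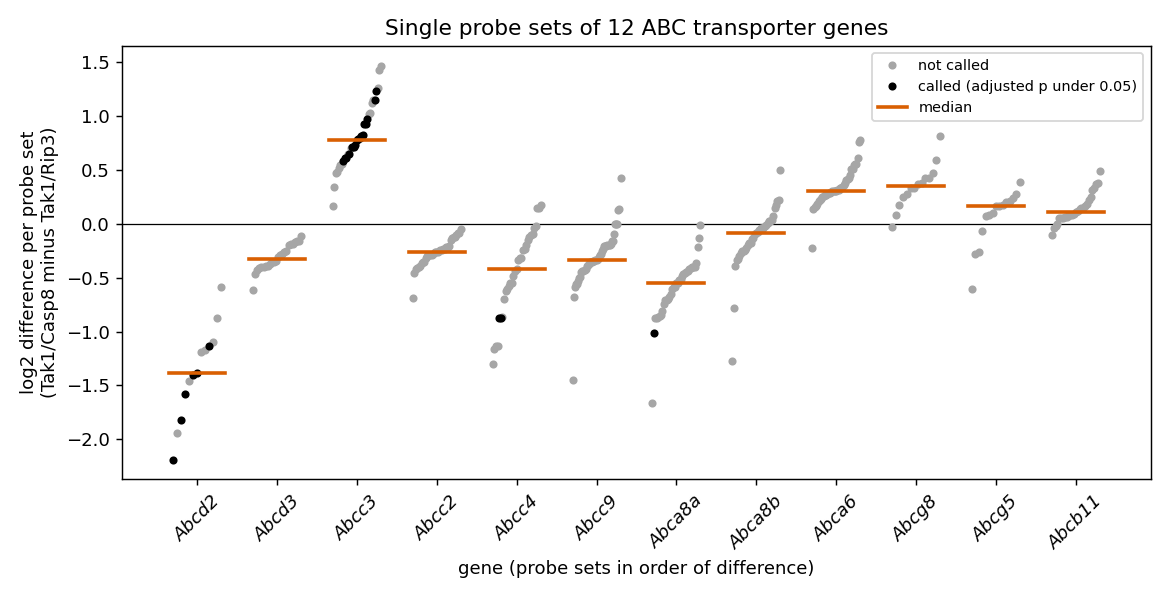
Log2 difference (Tak1/Casp8 minus Tak1/Rip3, y axis) of every probe set of 12 members, in order of size within a gene, with called probe sets in black, others in grey and the median as an orange bar. All probe sets lie below 0 for Abcd2 (13), Abcd3 (24), Abcc2 (34) and Abca8a (35) and above 0 for Abcc3 (33), while those of Abca8b, Abcc4, Abcg5 and Abcb11 fall on both sides.

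Among the mitochondrial transporters 0 of 3 passed in limma, with 1 at an unadjusted p under 0.05. Abcb10, an inner membrane transporter needed for haem synthesis in red cells, differed by 0.27 (interval 0.01 to 0.54, limma adjusted p = 0.216). Abcb8, tied to mitochondrial iron export, differed by -0.20 and Abcb6, a porphyrin transporter, by -0.18. Abcb8 changed sign with the brightest probe set (0.03). Abcb9, a lysosomal peptide transporter, and Abcd4, which takes part in lysosomal cobalamin release, had differences between -0.0030 and 0.03.

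The E and F proteins carry ATP-binding domains without membrane domains and act on ribosomes, and 0 of 4 passed in limma, also with 0 at an unadjusted p under 0.05. Abce1, which splits ribosomes for recycling, averaged 11.01 ± 0.06 in the Tak1/Casp8 livers and 11.17 ± 0.15 in the Tak1/Rip3 livers (-0.16, interval -0.38 to 0.06). Single arrays of Abce1 had 10.95, 11.05, 10.96 and 11.07 in the Tak1/Casp8 livers, against 11.05, 11.04, 11.33 and 11.26 in the Tak1/Rip3 livers. Abcf1, a factor of translation initiation, averaged 8.86 ± 0.15 in the Tak1/Casp8 livers and 9.04 ± 0.08 in the Tak1/Rip3 livers (SD, n = 4 each) and differed by -0.18, or 0.13 with the brighter probe sets. Single arrays of Abcf1 had 8.70, 8.86, 8.84 and 9.05 in the Tak1/Casp8 livers, against 9.02, 9.15, 9.04 and 8.96 in the Tak1/Rip3 livers. Both genes overlapped between the groups. Of the 5 sterol and phospholipid exporters, which include Abca1, Abcg5 and Abcg8, 0 passed in limma (1 at an unadjusted p under 0.05), with a median of 0.16. Abcg1 among them, best known from macrophages, differed by 0.04 (interval -0.31 to 0.39).

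Abcc9 encodes SUR2, the regulatory subunit of potassium channels in smooth muscle and pericytes. It had 10.07, 9.55, 9.90 and 9.38 in the Tak1/Casp8 livers, against 9.78, 10.19, 10.06 and 9.97 in the Tak1/Rip3 livers. The groups overlapped and the difference of -0.28 ± 0.16 SE did not pass (limma adjusted p = 0.350), though 42 of its 45 probe sets were negative. The lowest arrays, Tak1/Casp8 replicates 4 and 2, were also those with the lowest level of the 6 stellate cell and fibroblast markers. In the Tak1/Rip3 livers the highest and lowest arrays swapped places, while replicate 3 lay above replicate 4 in both Abcc9 and the marker level. There replicate 1 had the lowest Abcc9 value and the highest marker level (0.40). Replicate 2 had the highest Abcc9 value and the lowest marker level (0.03). The marker level lay between -0.63 and 0.0051 in the Tak1/Casp8 livers and between 0.03 and 0.40 in the Tak1/Rip3 livers, and its part in Abcc9 was not tested.

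**Figure D4:**
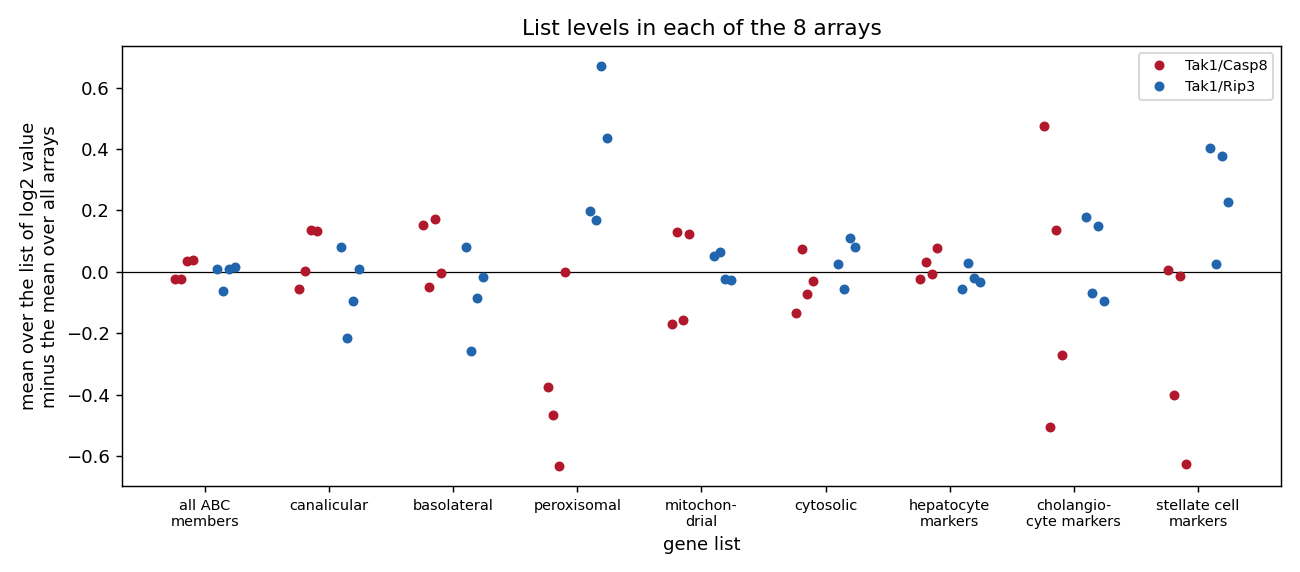
Mean over each gene list of the log2 value minus the gene's mean over all 8 arrays (y axis), 1 point per array, Tak1/Casp8 in red to the left of Tak1/Rip3 in blue. The list of all 48 members spans only -0.06 to 0.04; the peroxisomal list separates the groups, the canalicular and basolateral lists overlap.

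Array by array, the lists of pumps varied as much within a group as between them. The canalicular level lay between -0.05 and 0.14 in the Tak1/Casp8 livers and between -0.22 and 0.08 in the Tak1/Rip3 livers, and the lowest array was Tak1/Rip3 replicate 2. The basolateral level lay between -0.05 and 0.17 in the Tak1/Casp8 livers and between -0.26 and 0.08 in the Tak1/Rip3 livers, with the same lowest array. In that array 20 of the 48 members had the lowest value of their group, and 12 had the highest. Other arrays came close, with 18 members lowest in Tak1/Casp8 replicate 1 and 17 highest in Tak1/Casp8 replicate 4. The same count over all genes was not made. Hepatocyte markers lay between -0.02 and 0.08 in the Tak1/Casp8 livers and between -0.06 and 0.03 in the Tak1/Rip3 livers, and their part in the pumps' levels was not tested.

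Of 9 solute carriers of bile acid and organic anion transport 1 was called higher and 1 lower. Slc22a7 (OAT2), an organic anion carrier of the hepatocyte's blood-facing membrane, had 7.68, 7.93, 7.12 and 8.12 in the Tak1/Casp8 livers, against 9.78, 9.92, 9.49 and 9.61 in the Tak1/Rip3 livers. Its level in the Tak1/Casp8 livers was 3.97-fold lower (-1.99 ± 0.20 SE, limma adjusted p = 0.000456), with no overlap, and the call was lost only with each gene's own variance in each group (0.0710). Slco1a4, an uptake carrier for organic anions, was called higher (0.87 ± 0.19 SE), and omitting any of 5 arrays, replicates 1 and 2 of the Tak1/Casp8 livers and 1, 2 and 4 of the Tak1/Rip3 livers, ended that call (adjusted p = 0.0510 to 0.0702). It was also lost with the brightest probe set (0.54, adjusted p = 0.0921) and with each gene's own variance in each group (0.180).

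Of 10 genes for the flippase, tethers and trafficking of the canalicular membrane, 1 was called, Ezr. Rdx, radixin, of the same list, overlapped between the groups and differed by -0.13 (limma adjusted p = 0.564). Ezr, ezrin, which ties membrane proteins to actin, had 8.41, 8.36, 8.58 and 8.14 in the Tak1/Casp8 livers, against 8.89, 9.12, 8.93 and 9.00 in the Tak1/Rip3 livers. Its level in the Tak1/Casp8 livers was 1.53-fold lower (-0.61 ± 0.11 SE, limma adjusted p = 0.0103), though its brightest probe set gave -0.31 (adjusted p = 0.315) and the call was also lost with each gene's own variance in each group (0.0915). Ezrin is also made in bile duct cells, whose 6 measured markers had levels between -0.51 and 0.48 in the Tak1/Casp8 livers and between -0.10 and 0.18 in the Tak1/Rip3 livers; their part in the result was not tested.

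Of 13 nuclear receptors and regulators known to act on ABC genes, 0 were called in limma and 1 had an unadjusted p under 0.05, Nr5a2 (LRH-1), at -0.23 (limma adjusted p = 0.213). Its difference was 0.03 with the mean over probe sets and 0.20 with the brighter probe sets. The ABC proteins with other symbols gave 0 calls among 3 in limma, with 1 at an unadjusted p under 0.05. Tap2, which with Tap1 brings peptides to MHC class I molecules, had 8.98, 9.04, 9.13 and 8.99 in the Tak1/Casp8 livers, against 8.85, 8.55, 8.66 and 8.76 in the Tak1/Rip3 livers (0.33 ± 0.10 SE, limma adjusted p = 0.0702), with no overlap. It passed in 5 of 19 other settings, among them quantile normalisation (0.0399). With the brightest probe set the difference was 0.22 (limma adjusted p = 0.214), and with the brighter probe sets 0.18 (0.286). Without any 1 array it did not pass (0.0779 to 0.162).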

How the data were processed

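The deposited values are log2 intensities per probe set, normalised by RMA per the submitters' processing notes, which give no version. RMA aligns the arrays' distributions, so a shift shared by most genes is largely removed, and dim values are compressed. No detection call or genome build is given in the sources used here, and precision is limited by the number of arrays, 4 per group. Of 223771 probe sets, 206316 had exactly 1 symbol, and their median per symbol and array gave 19560 genes (2571 old symbols updated through RefSeq). The 48 members rest on 1424 probe sets, 13 to 64 each. One gene, Abce1, had further probe sets with several symbols, which were left out. Groups follow the genotype label, and replicate numbers only name arrays; no batch is labelled. Whether the mice share litters is not stated. The p-values take the mice as independent, which could not be checked, and may be too small if that does not hold.

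limma 3.58.1 in R 4.3.3 fitted 1 group term over all 8 arrays (lmFit, eBayes, two-sided), with Benjamini-Hochberg adjustment over all genes, or over all 206316 probe sets, and was tested on simulated data. Named genes were the canalicular and basolateral members, called members, the largest difference per subfamily, members without overlap, and list genes that a result turns on; other list genes are given as counts. The members and lists were chosen with earlier results of these data known. Alternatives were other normalisations, probe set summaries, filters, variance models, thresholds and omission of each array; omission of the least correlated pair was added after seeing the data. Figures used matplotlib 3.10.9 under Python 3.11.15.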

Additional observations from a re-analysis of the deposited data

Results flagged for a closer look

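In 6 of 82 groups of 4 arrays looked at, 1 value lay far from the other 3 by Dixon's criterion. Chance gives about 1 in 20 such groups. For Abca8a the high value was that of Tak1/Rip3 replicate 3 (10.11, with 9.71 next to it), and without that array Abca8a differed by -0.47 and lost its call (limma adjusted p = 0.0771). For Abcb1a the low value was that of Tak1/Casp8 replicate 2 (8.57, next 9.02), and for Abcb8 the high value was that of the same array (8.68, next 8.34). For Abcc4 the high value was that of Tak1/Rip3 replicate 1 (8.65, next 8.34). For Abcg2 the low value was that of Tak1/Rip3 replicate 2 (9.17, next 9.73). For the targeted gene Ripk3 the low value was that of Tak1/Rip3 replicate 1 (6.36, next 7.04).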

How the results depend on the processing

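The count of 3 called members was 6 with the mean over probe sets, where 1804 of all 19560 genes were called, and 5 with a filter at the 50th percentile, where 33 members were tested and 1337 of 9780 genes were called. It was 5 with trend and robust settings (1554 genes in all) or at an adjusted p under 0.10, and 2 to 3 without any 1 array. With each gene's own variance in each group, unmoderated, it was 0 (6 at an unadjusted p under 0.05, beside 3508 of all genes), and the count over all genes was 115. That count, 1308, was 759 with the brightest probe set, 406 and 2130 at thresholds of 0.01 and 0.10, and 706 to 1347 without any 1 array (706 and 737 without Tak1/Rip3 replicate 1 or 4, 765 without Tak1/Casp8 replicate 2). The median over the members, 0.03, was 0.078 with arrays shifted to the same median and -0.0047 to 0.062 without any 1 array, the lowest without Tak1/Rip3 replicate 2. The medians of the canalicular and basolateral lists moved by less than the spread between arrays, though that of the basolateral list turned to -0.03 without Tak1/Rip3 replicate 2 and that of the canalicular list was 0.05 there. Differences near 0 changed sign. With the mean over probe sets Abca9 gave -0.046, Abcc5 0.0065, Map3k7 0.094 and Nr5a2 0.030. With the brighter probe sets Abca9 gave -0.022, Abcb1b -0.10, Abcc5 0.079, Abcf1 0.13 and Nr5a2 0.20. With the brightest probe set Abcb1b gave -0.52, Abcb4 0.066, Abcb8 0.030, Abcc5 0.058, Abcc6 -0.0058, Abcg5 -0.071, Map3k7 0.088 and Ripk3 -0.036. Alb gave 0.0026 with arrays shifted to the same median, and Abcb1b -0.0078 without the least correlated pair. Without any 1 array Abca9 ranged from -0.090 to 0.16, Abcb1b from -0.034 to 0.17, Abcc5 from -0.15 to 0.045 and Abcg1 from -0.053 to 0.12. The cause was not tested. No paired analysis was possible because the labels pair no mice. Signal over background could not be judged, for lack of detection calls.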
